A study of Homo sapiens with 12 samples.

Results

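The fetal axis made of LIN28B, the high-mobility group genes HMGA1 and HMGA2 and the IGF2 mRNA-binding protein genes IGF2BP1, IGF2BP2 and IGF2BP3 was followed from human embryonic stem cells (hESCs) through hemogenic endothelium (HE) to hematopoietic progenitor cells (HPCs), in wild-type (WT) and GATA2-/- (KO) cells of the H1 line. Members were chosen by gene symbol, as let-7 targets of the fetal programme, and make up 6 of the 56266 rows in each of 10 RNA-seq libraries. All of the libraries derive from H1, an established human embryonic stem cell line, and the KO cells descend from 1 H1 clone in which a PGK-driven neomycin cassette was placed in an exon of GATA2 with TALENs. The analysed libraries form 5 groups of 2: undifferentiated KO hESCs, WT and KO HEs sorted as CD34+CD31+CD43- cells on day 8 of co-culture on OP9 (a mouse bone marrow stromal line), and WT and KO HPCs sorted as CD34+CD43+ cells on day 9. The 2 WT hESC samples were not analysed here, so every comparison with hESCs was made within the KO line, and stage goes together with day of culture and sorting gate. Nothing in the labels says that the 2 libraries of a group came from separate cultures, so p-values measure only the spread between these libraries, which may be technical.

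LIN28A and LIN28B are RNA-binding proteins that recognise let-7 precursors and keep them from being processed, in part by recruiting enzymes that add uridine to the precursor. Mature let-7 pairs through its seed with sites in the 3′UTRs of its targets, which include LIN28B itself, HMGA2 and the IGF2BP genes, and lowers their levels. In blood formation this pathway is known for separating fetal from adult stem cells: the fetal state has high LIN28B, low let-7 and high HMGA2, a chromatin protein linked to self-renewal. The IGF2BP proteins bind and stabilise mRNAs, IGF2 among them, and are mostly fetal or oncofetal proteins.

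The mature let-7 sequences are shown because all members were chosen as targets of this family. RefSeq (GRCh38.p14) gave 9 mature 5p sequences from 12 genes, each 22 bases long, and each carried the same seed, bases 2 to 8, in capitals:
let-7a-5p: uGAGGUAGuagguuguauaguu
let-7b-5p: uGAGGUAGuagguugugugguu
let-7c-5p: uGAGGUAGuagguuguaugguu
let-7d-5p: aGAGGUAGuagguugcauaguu
let-7e-5p: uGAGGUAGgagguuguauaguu
let-7f-5p: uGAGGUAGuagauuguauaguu
let-7g-5p: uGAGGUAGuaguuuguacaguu
let-7i-5p: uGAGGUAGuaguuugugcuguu
miR-98-5p: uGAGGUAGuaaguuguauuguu

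The complement of this seed, CTACCTC, was searched for on the transcribed strand of the 3′UTR of 1 canonical transcript per protein-coding gene (GENCODE annotation lifted to GRCh37, the hg19 build of the deposited values). A match followed by A (CTACCTCA) was called an 8mer, a match followed by another base a 7mer-m8, and TACCTCA not preceded by C a 7mer-A1, so that no site was counted in more than 1 class. The members held 15 matches to the whole seed (8 8mers and 7 7mer-m8 sites) and 7 7mer-A1 sites. Each of the 15 is printed below in a window of 22 bases that starts 14 bases before the match, with the matching letters in capitals; every one lies in the 3′UTR part of the last exon.
LIN28B, base 44 after the stop codon, chr6:105526688-105526709 (plus strand): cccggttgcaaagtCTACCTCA
LIN28B, base 2471 after the stop codon, chr6:105529115-105529136 (plus strand): actgatgatagtaaCTACCTCt
LIN28B, base 2653 after the stop codon, chr6:105529297-105529318 (plus strand): tttacagcaaaaggCTACCTCA
LIN28B, base 4092 after the stop codon, chr6:105530736-105530757 (plus strand): aatgatggtgttgaCTACCTCt
HMGA1, base 960 after the stop codon, chr6:34213607-34213628 (plus strand): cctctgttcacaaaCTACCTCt
HMGA2, base 21 after the stop codon, chr12:66357079-66357100 (plus strand): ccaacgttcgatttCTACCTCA
HMGA2, base 1256 after the stop codon, chr12:66358314-66358335 (plus strand): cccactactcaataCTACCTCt
HMGA2, base 1668 after the stop codon, chr12:66358726-66358747 (plus strand): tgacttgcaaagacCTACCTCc
HMGA2, base 2521 after the stop codon, chr12:66359579-66359600 (plus strand): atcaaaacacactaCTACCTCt
IGF2BP1, base 1632 after the stop codon, chr17:47128424-47128445 (plus strand): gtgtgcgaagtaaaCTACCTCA
IGF2BP1, base 4269 after the stop codon, chr17:47131061-47131082 (plus strand): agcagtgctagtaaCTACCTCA
IGF2BP1, base 4923 after the stop codon, chr17:47131715-47131736 (plus strand): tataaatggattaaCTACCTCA
IGF2BP1, base 5568 after the stop codon, chr17:47132360-47132381 (plus strand): cacttttgttttatCTACCTCt
IGF2BP2, base 1304 after the stop codon, chr3:185362008-185362029 (minus strand): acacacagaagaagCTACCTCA
IGF2BP3, base 560 after the stop codon, chr7:23351414-23351435 (minus strand): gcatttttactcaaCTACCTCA

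LIN28B, HMGA2 and IGF2BP1 each held 4 matches to the whole seed, and HMGA1, IGF2BP2 and IGF2BP3 each held 1. Among 19081 3′UTRs scanned, 1857 (9.7%) held at least 1 such match and 12 held 4 or more. Those 12 included LIN28B, HMGA2 and IGF2BP1, as well as TRIM71 with 6 matches, NR6A1 with 5, and HIC2 and IGDCC3 with 4 each. Long 3′UTRs hold more matches, so each member was set beside the other 3′UTRs within 20% of its own length. For LIN28B, with a 3′UTR of 4549 bases, 2 of 1517 such 3′UTRs held as many. HMGA2, at 2999 bases, was matched by 1 of 2199. For IGF2BP1, at 6701 bases, the number was 3 of 746. By contrast, the single matches of HMGA1 (1347 bases), IGF2BP2 (2401 bases) and IGF2BP3 (2153 bases) were equalled or passed by 8.39%, 12.7% and 12.4% of 3′UTRs of like length. Members were chosen as let-7 targets, which pair with let-7 through such matches, so these counts describe the members and are no test of targeting. NR6A1, HIC2 and IGDCC3 likewise come from a list of let-7 targets. A match is a stretch of letters and was not tested here for binding, and mature let-7 itself is not measured by these mRNA libraries.

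Values were TPM (transcript abundance scaled for length and for the library's total), and sum to between 998299 and 999106 in a library; read depth is not known from them. A gene was tested where it had at least 1 TPM in at least 2 libraries, which 21543 genes and all 6 members did. With 2 libraries a group, non-overlap of 2 groups was common over all genes tested. Its share was 30.3% between KO and WT HEs and 32.6% between KO and WT HPCs. Against KO hESCs it was 63.1% for KO HEs and 62.3% for KO HPCs. GATA2, the targeted gene, stood at 2.05 and 5.54 TPM in KO hESCs, 107 and 78.0 in WT HEs, 111 and 94.1 in KO HEs, 290 and 204 in WT HPCs, and 112 and 83.8 in KO HPCs. A value for the whole gene cannot show a cassette inside an exon, so these values do not check the genotype labels, and WT and KO stand for the labels throughout; its KO against WT value on the log2 scale was 0.16 for HEs and -1.32 for HPCs (limma adjusted p = 1 and 0.296). Sums over marker sets followed the stage labels. The summed TPM of 8 pluripotency genes was 5522 to 6278 in hESCs against 225 to 377 in the other libraries, where LIN28A alone held 97.1 to 244. That of 8 endothelial genes was 2633 to 3100 in HEs against 534 to 769 in HPCs. For 8 blood progenitor genes it was 1641 to 2091 in HPCs against 73 to 266 in HEs. In HPCs ITGA2B alone held 736 to 1258 of that sum. PTPRC did not follow the labels, at 0.68 to 3.09 TPM in HPCs and 0.56 to 3.06 in hESCs.

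LIN28B (ENSG00000187772; chr6:105384491-105531207, plus strand), the let-7 blocker of the set, was present in every library. Its TPM was 41.6 and 33.6 in KO hESCs, 35.6 and 27.3 in WT HEs, 25.7 and 21.1 in KO HEs, 40.3 and 28.7 in WT HPCs, and 44.5 and 35.2 in KO HPCs. From the highest group mean to the lowest the order was KO HPC (39.8 ± 6.56, SD, n = 2), KO hESC (37.6 ± 5.66), WT HPC (34.5 ± 8.21), WT HE (31.4 ± 5.87) and KO HE (23.4 ± 3.29). Neighbors in that order overlapped, except WT HEs and KO HEs, whose libraries did not overlap. The whole range over 10 libraries was 2.11-fold.

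HMGA2 (ENSG00000149948; chr12:66218240-66360071, plus strand), the chromatin protein through which LIN28B is known to act in fetal stem cells, had the widest range of the 6 members, 9.26-fold. It was at 60.4 and 54.96 TPM in KO hESCs, 102 and 90.9 in WT HEs, 96.6 and 121 in KO HEs, 27.1 and 22.3 in WT HPCs, and 19.2 and 13.0 in KO HPCs. HEs of both genotypes were highest, hESCs were between, and HPCs of both genotypes were lowest. KO HEs (109 ± 17.0) and WT HEs (96.4 ± 7.76) overlapped, whereas KO hESCs (57.7 ± 3.83), WT HPCs (24.7 ± 3.41) and KO HPCs (16.1 ± 4.38) each stood clear of the neighboring group. Among genes with at least 1 TPM in the same library, HMGA2 was at the 90.2 to 92.6 percentile in HEs and at the 53.4 to 68.9 percentile in HPCs.

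HMGA1 (ENSG00000137309; chr6:34204650-34214008, plus strand), the related chromatin protein of dividing and pluripotent cells, was the most abundant member by far, at or above the 98.9 percentile in each library. It had 2132 and 1925 TPM in KO hESCs, 1175 and 1017 in WT HEs, 1054 and 810 in KO HEs, 1715 and 1721 in WT HPCs, and 1062 and 1375 in KO HPCs. The order was hESCs (2028 ± 146), WT HPCs (1718 ± 4.05), KO HPCs (1218 ± 221), WT HEs (1096 ± 112) and KO HEs (932 ± 173). The first 3 groups did not overlap one another, and the last 3 overlapped with their neighbors. By group means HMGA1 was lowest in the HE groups, where HMGA2 was highest.

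**Figure D1:**
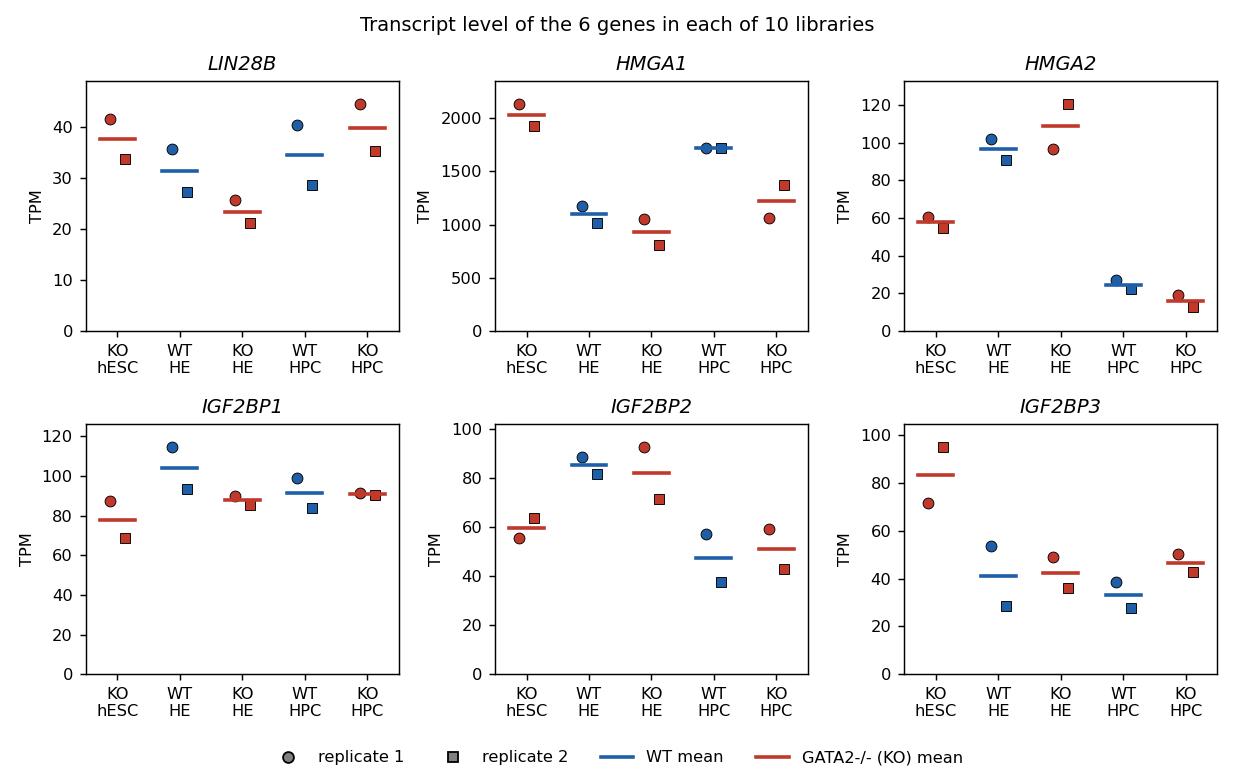
TPM (y axes, linear, from 0) of each of the 6 genes in the 10 libraries, with a circle for replicate 1, a square for replicate 2 and a bar for the group mean. HMGA2 lies between 90.9 and 121 in the 4 HE libraries and between 13.0 and 27.1 in the 4 HPC libraries, while IGF2BP1 and LIN28B stay within 1.67-fold and 2.11-fold over all 10.

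IGF2BP1 (ENSG00000159217; chr17:47074747-47133507, plus strand), the member with the longest 3′UTR, was the steadiest, with a range of 1.67-fold over the 10 libraries. It was at 87.4 and 68.6 TPM in KO hESCs, 115 and 93.3 in WT HEs, 90.2 and 85.4 in KO HEs, 98.9 and 84.1 in WT HPCs, and 91.3 and 90.3 in KO HPCs. Group means ran from 104 ± 15.1 in WT HEs to 78.0 ± 13.3 in KO hESCs, and all neighbors in the order overlapped except KO HPCs and KO HEs, which were 90.28 and 90.16 TPM at their closest.

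IGF2BP2 (ENSG00000073792; chr3:185360918-185542830, minus strand), the family member that is also used in adult tissues, was higher in HEs than in the other stages. Its values were 55.4 and 63.9 TPM in KO hESCs, 88.6 and 81.7 in WT HEs, 92.7 and 71.4 in KO HEs, 57.3 and 37.8 in WT HPCs, and 59.4 and 42.9 in KO HPCs. None of the 4 HE libraries overlapped with any of the other 6, and the hESC, KO HPC and WT HPC groups (59.7 ± 6.01, 51.1 ± 11.7 and 47.6 ± 13.8) overlapped with their neighbors. Between HEs and HPCs, 46.3% of all genes tested in WT and 51% in KO did not overlap either. Between KO HEs and KO hESCs the share was 63.1%. The share for the split of 4 against 6 libraries was not counted.

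IGF2BP3 (ENSG00000136231; chr7:23349828-23510110, minus strand), an oncofetal member, was highest in the stem cells. It was at 71.4 and 94.9 TPM in KO hESCs, 53.4 and 28.5 in WT HEs, 49.0 and 35.9 in KO HEs, 38.6 and 27.9 in WT HPCs, and 50.2 and 42.9 in KO HPCs. KO hESCs (83.1 ± 16.6) stood clear of the rest, and the other 4 groups overlapped along the order KO HPC (46.5 ± 5.16), KO HE (42.4 ± 9.28), WT HE (41.0 ± 17.6) and WT HPC (33.2 ± 7.57).

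To ask whether loss of GATA2 moved the axis in endothelium, KO HEs were compared with WT HEs. No member passed an adjusted p of 0.05 in limma on log2(TPM + 1), and none had an unadjusted p under 0.05; over all genes 0.0186% passed the first threshold and 4.85% the second. LIN28B had the largest difference, a log2 fold change of -0.40 (SE 0.25, 95% confidence interval -0.96 to 0.16, limma adjusted p = 1), and IGF2BP1 was at -0.23 (SE 0.18). The libraries of these 2 genes, lower in KO, did not overlap between genotypes, and 30.3% of all genes tested showed no overlap. HMGA1, HMGA2, IGF2BP2 and IGF2BP3 had log2 fold changes of -0.24, 0.16, -0.06 and 0.10, and their libraries overlapped. The intervals of all 6 stayed between -0.96 and 0.82, so a change of more than 2-fold in either direction lies outside them.

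In HPCs the comparison of KO with WT also gave no member past an adjusted p of 0.05 (0.0603% of all genes passed), but HMGA1 and HMGA2 had unadjusted p-values under 0.05, as did 8.94% of all genes. HMGA2 was 0.658 of its WT level in KO HPCs (log2 fold change -0.60, SE 0.22, 95% confidence interval -1.10 to -0.10, limma adjusted p = 0.462). HMGA1 was 0.703 of its WT level (log2 fold change -0.51, SE 0.18, 95% confidence interval -0.91 to -0.10, limma adjusted p = 0.442). Both KO libraries were below both WT libraries for these 2 genes, and both were above for IGF2BP3 (log2 fold change 0.49, SE 0.32, limma adjusted p = 0.694). Non-overlap was thus seen in 3 of 6 members, and in 32.6% of all genes tested. LIN28B, IGF2BP1 and IGF2BP2 had log2 fold changes of 0.21, -0.01 and 0.11 with overlapping libraries; IGF2BP1 turned positive when TPM was rescaled without mitochondrial and globin genes (0.09) or quantile normalized (0.01). Mitochondrial transcripts took 14.8% to 15.1% of the TPM in KO HPCs and 8.66% to 9.61% in WT HPCs. With TPM rescaled to leave these and the globins out, HMGA2 and HMGA1 stood at -0.51 and -0.41. Macrophage markers summed to 174 and 301 TPM in KO HPCs and 319 and 451 in WT HPCs. Most of that sum was AIF1 (105 and 203 against 228 and 344). CSF1R was also lower in KO (9.70 and 27.5 against 40.37 and 34.05), and CD68 overlapped. LYZ went the other way (56.4 and 59.9 against 45.5 and 55.6), and CD14 was listed at 0 in both groups. Erythroid markers summed to 3611 and 6636 in KO HPCs against 2855 and 6372 in WT HPCs. The part of these cells in the HMGA values was not tested.

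The knockout effect in HPCs minus that in HEs was tested as an interaction. No gene of the 21543 passed (0%), while 5.95% had an unadjusted p under 0.05. HMGA2 was the member with such a p (log2 difference -0.77, SE 0.31, 95% confidence interval -1.48 to -0.06, limma adjusted p = 0.813), being 0.16 higher in KO HEs and 0.60 lower in KO HPCs on the log2 scale. LIN28B had a log2 difference of 0.62 (SE 0.35, 95% confidence interval -0.17 to 1.41, limma adjusted p = 0.88). The other 4 members had log2 differences from -0.27 to 0.39, all with intervals that span 0.

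The step from HEs to HPCs was compared within each genotype, in libraries that the 2 comparisons do not share with each other but do share with the comparisons of KO with WT. HMGA2 fell in both. In WT cells its level in HPCs was 0.263 of that in HEs (log2 fold change -1.93, SE 0.22, 95% confidence interval -2.43 to -1.43, limma adjusted p = 0.00109). In KO cells it was 0.155 of the HE level (log2 fold change -2.69, SE 0.22, 95% confidence interval -3.19 to -2.19, limma adjusted p = 0.000304). No HPC library came near an HE library: the highest of the former was 27.1 TPM and the lowest of the latter 90.9. With a variance taken from the 4 libraries of the comparison alone, HMGA2 kept its fold change but had an adjusted p of 0.0767 in WT and 0.0581 in KO, and no gene passed in either comparison.

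HMGA2 was the 1 of 6 members called in each of these comparisons, and no member was called higher. Over all genes, 6.59% were called lower and 3.32% higher in WT HPCs, and 7.24% and 5.5% in KO HPCs. IGF2BP2 pointed the same way as HMGA2 in each genotype, without passing the threshold: -0.86 in WT (SE 0.25, limma adjusted p = 0.0643) and -0.68 in KO (SE 0.25, limma adjusted p = 0.116). Every HPC library was below every HE library of its genotype for IGF2BP2, but 46.3% of all genes in WT and 51% in KO also had no overlap. The WT difference had adjusted p-values of 0.0376 with the replicate number as a block, 0.049 with quantile normalization and 0.0431 without replicate 1 of the WT HPCs, at log2 fold changes of -0.86, -0.74 and -1.15.

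HMGA1 did not pass, with a log2 fold change of 0.65 in WT (SE 0.18, limma adjusted p = 0.0544) and 0.39 in KO (SE 0.18, limma adjusted p = 0.21). Leaving mitochondrial and globin genes out of the TPM gave 0.71 for HMGA1 in WT, with an adjusted p of 0.0449, and the replicate block gave 0.0494. LIN28B was 0.12 in WT (SE 0.25, limma adjusted p = 0.849), where its libraries overlapped, and 0.74 in KO (SE 0.25, limma adjusted p = 0.0889), where they did not. That rescaling shifted the median log2 fold change of all genes from 0.03 to 0.15 in the KO comparison, and the share of calls that were higher from 43.2% to 55%; LIN28B was then 0.89, with an adjusted p of 0.0422. It also passed with quantile normalization (0.79, adjusted p = 0.0241 in limma), where the median of all genes was 0.01, and with the replicate block (adjusted p = 0.0182 in limma). IGF2BP1 was at -0.18 and 0.05 and IGF2BP3 at -0.25 and 0.14 in WT and KO, with overlapping libraries for IGF2BP3 in each genotype.

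The fall in HMGA2 went with a change in the make-up of the sorted cells, and in bulk samples fewer cells of a type and less RNA per cell cannot be told apart. All 8 endothelial markers were lower in HPCs than in HEs in each genotype. The 7 erythroid markers summed to 184 to 341 TPM in HEs and 2855 to 6636 in HPCs, and the 8 mesenchymal and stromal markers to 500 to 793 and 115 to 256. Of these 8, 3 were called lower in each genotype, where 6.59% of all genes in WT and 7.24% in KO were. PDGFRB went the other way, at 2.99 to 8.24 TPM in HEs and 12.5 to 15.6 in HPCs. DCN was at most 1.78 TPM in these libraries. Within each HPC group the library with more erythroid RNA, replicate 2 (6372 against 2855 in WT, 6636 against 3611 in KO), had less HMGA2 (22.3 against 27.1, and 13.0 against 19.2). The part of the mixture of cells in the HMGA2 values was not tested.

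From KO hESCs to KO HEs, 3 members were called: HMGA1 and IGF2BP3 were lower, where 16.1% of all genes were, and HMGA2 was higher, where 13.9% were. HMGA1 fell to 0.456 of its hESC level (log2 fold change -1.13, SE 0.18, limma adjusted p = 0.00163) and remained past the threshold under every alternative tried. HMGA2 rose 1.86-fold (log2 fold change 0.89, SE 0.22, limma adjusted p = 0.015); its adjusted p was 0.0635, 0.0915 and 0.0992 without replicate 1 of the hESCs, replicate 2 of the hESCs or replicate 2 of the KO HEs. IGF2BP3 sat at the threshold (log2 fold change -0.96, SE 0.32, limma adjusted p = 0.0498) and was past it in 3 of 11 alternatives. LIN28B was at -0.66 (SE 0.25, limma adjusted p = 0.0756), with both HE libraries below both hESC libraries, where 63.1% of all genes had no overlap; quantile normalization gave an adjusted p of 0.0247 and the replicate block 0.014. IGF2BP1 (0.18) and IGF2BP2 (0.44) did not pass.

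Between KO hESCs and KO HPCs, which share the hESC libraries with the comparison before, HMGA2 and HMGA1 were called lower (16.4% of all genes were) and no member higher (14.2% of all genes were). HMGA2 ended at 0.287 of its hESC level (log2 fold change -1.80, SE 0.22, limma adjusted p = 0.000407) after being 1.86-fold above it in HEs. HMGA1 stayed at 0.597 (log2 fold change -0.75, SE 0.18, limma adjusted p = 0.0132); this call was lost in 5 of 11 alternatives, 3 of which left out 1 library, with adjusted p-values up to 0.104. IGF2BP3 was at -0.81 (SE 0.32, limma adjusted p = 0.085). LIN28B (0.08, SE 0.25), IGF2BP1 (0.23, SE 0.18) and IGF2BP2 (-0.23, SE 0.25) had intervals that include 0. The intervals of LIN28B ran from -0.48 to 0.64, so that a 2-fold difference between hESCs and HPCs lies outside them.

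**Figure D2:**
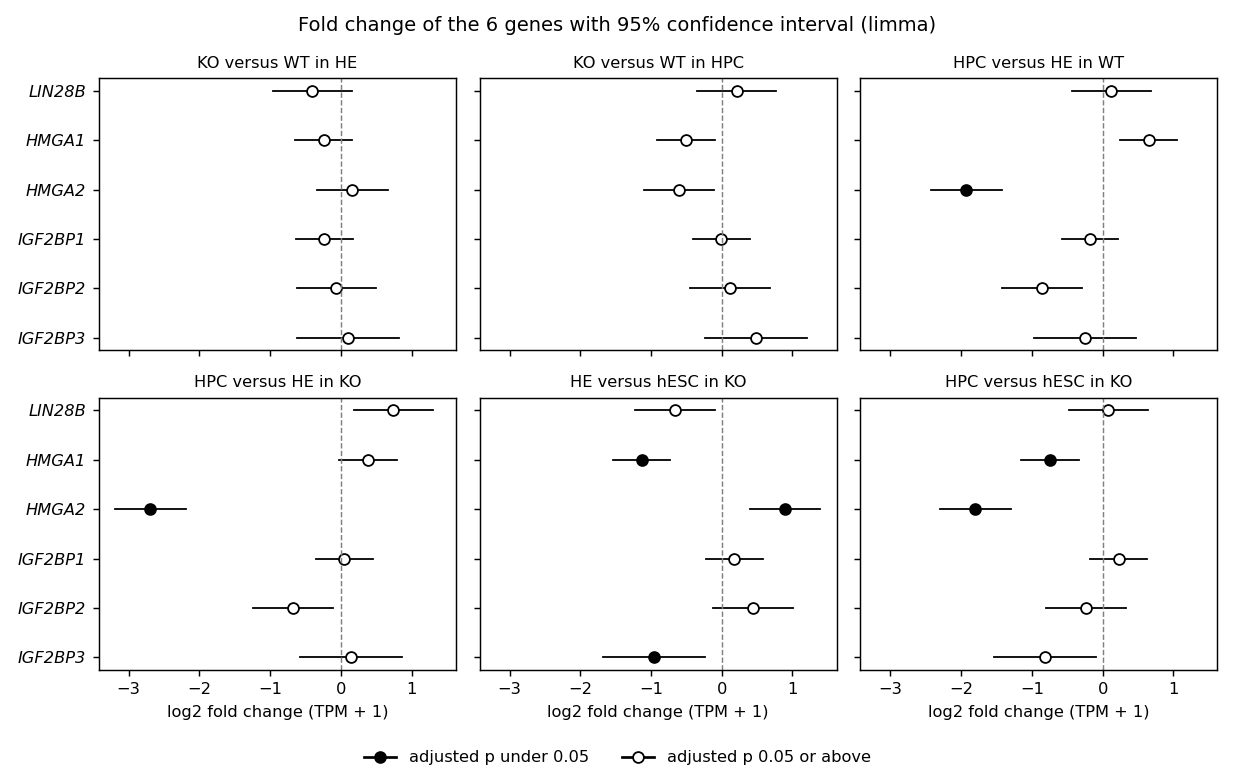
Points are limma log2 fold changes on log2(TPM + 1) and lines their 95% confidence intervals (x axis), for the 6 genes in 6 comparisons, filled where the adjusted p is under 0.05. No gene is filled in either comparison of KO with WT, HMGA2 is filled in the other 4 panels, HMGA1 in both panels against hESCs and IGF2BP3 in HE versus hESC.

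The balance between related genes was followed as a ratio within each library. LIN28A, the paralogue of LIN28B that is typical of pluripotent cells, was 14.7 and 19.8 times as abundant as LIN28B in KO hESCs, 6.87 to 8.06 times in the 4 HE libraries, 5.67 and 5.69 times in WT HPCs, and 3.67 and 2.76 times in KO HPCs. HMGA1 was 35.3 and 35.0 times HMGA2 in KO hESCs, 6.71 to 11.5 times in HEs, and 55.2 to 105 times in HPCs. Of the summed IGF2BP TPM, IGF2BP3 took 33.3% and 41.7% in hESCs, 14% to 21.1% in HEs, and 18.6% to 25% in HPCs. IGF2BP2 took 34.5% to 40.2% in HEs, more than in any hESC or HPC library (24.4% to 29.6%). IGF2BP1 took the largest share in 8 of 10 libraries, up to 56.2% in WT HPCs. These ratios have 2 values a group and are given as a description, without a test.

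**Figure D3:**
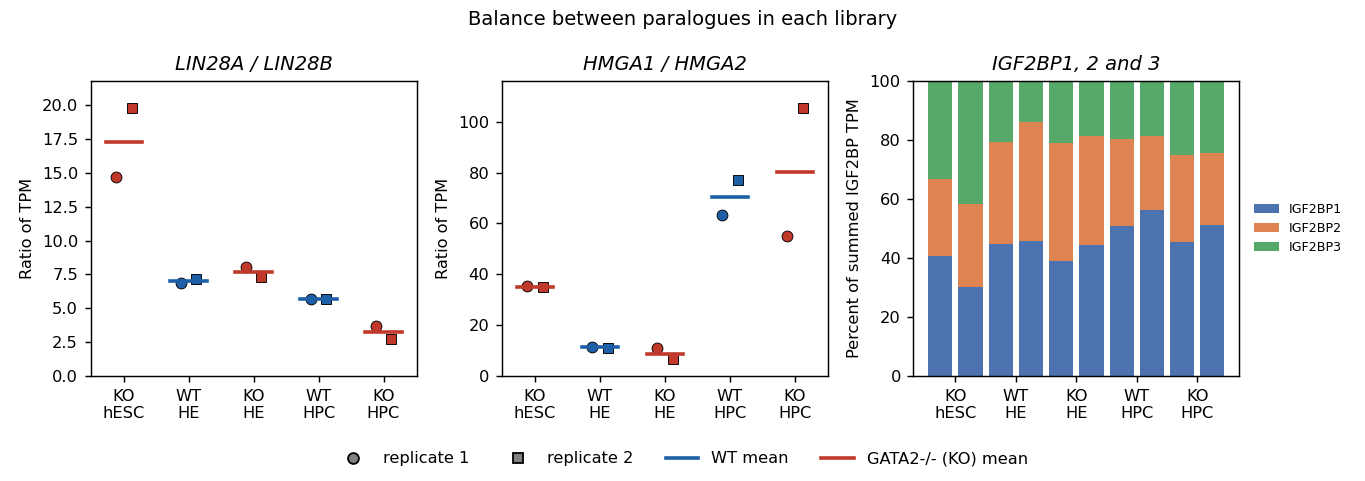
The left and middle panels give the TPM ratio (y axis, from 0) of LIN28A to LIN28B and of HMGA1 to HMGA2 in each library, with bars for group means; the right panel gives the percent of the summed IGF2BP TPM held by each of the 3 genes, with 1 stacked bar a library (replicate 1 left, replicate 2 right). The LIN28A to LIN28B ratio falls from 14.7 and 19.8 in KO hESCs to 3.67 and 2.76 in KO HPCs, and the HMGA1 to HMGA2 ratio is 6.71 to 11.5 in HEs and 55.2 to 105 in HPCs.

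Around the members, a list of 21 genes of let-7 processing and LIN28 function was tested in full. None of the 21 was called between KO and WT in HEs or in HPCs by limma, where 0.0186% and 0.0603% of all genes were. An unadjusted p under 0.05 was held by 4.85% and 8.94% of all genes, and by 1 and 0 of the 21. Against KO hESCs, 4 were lower and 1 higher in KO HEs, and 3 lower and 2 higher in KO HPCs; over all genes 16.1% were lower and 13.9% higher in KO HEs, and 16.4% and 14.2% in KO HPCs. LIN28A, which blocks let-7 as LIN28B does, fell from 611 and 665 TPM in KO hESCs to 207 and 154 in KO HEs (log2 fold change -1.83, SE 0.27, limma adjusted p = 0.00123) and 163 and 97.1 in KO HPCs (-2.33). It was at 244 and 194 TPM in WT HEs and 229 and 163 in WT HPCs, and POU5F1, another pluripotency gene, fell by 10.27 on the log2 scale from KO hESCs to KO HEs. TRIM71, a let-7 target and stem cell RNA-binding protein that held 6 seed matches, was at 61.3 and 71.1 TPM in KO hESCs and at 12.1 to 26.0 in the other 8 libraries (log2 fold change -2.12 in KO HEs, limma adjusted p = 0.00149). TNRC6A, a partner of Argonaute proteins, was also lower in both (-1.43 and -1.09), XPO5, the exporter of miRNA precursors, was lower in KO HEs (-0.95), and EIF2C4 (AGO4) was higher there (1.24). The helicases DDX5 and DDX17 of the Drosha complex were higher in KO HPCs (0.87 and 0.60). From HE to HPC, 1 of the 21, EIF2C4, was called lower in WT (-1.56), where 6.59% of all genes were. In KO, 2 of the 21 were called higher, where 5.5% of all genes were. These were DDX5 (0.62) and ZCCHC11 (0.73), which is TUT4, the uridylyl transferase that LIN28A recruits.

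A list of 28 other let-7 targets was tested in the same way. None was called by limma between KO and WT in either stage, where 0.0186% of all genes in HEs and 0.0603% in HPCs were. Unadjusted p-values fell under 0.05 for 4.85% of all genes in HEs and 8.94% in HPCs, and for 2 and 3 of the 28. From HE to HPC, 2 were higher and 3 lower in WT, and 3 higher and 2 lower in KO, with median log2 fold changes of 0.01 and 0.30 against -0.01 and 0.03 over all genes. Over all genes, 3.32% were called higher and 6.59% lower in WT, and 5.5% and 7.24% in KO. IGDCC3, a membrane protein of the embryo with 4 seed matches, fell with HMGA2 in each genotype (log2 fold change -1.92 in WT and -1.50 in KO; limma adjusted p = 0.0205 and 0.0476). STARD13 and FNDC3B fell in WT (-1.67 and -1.55), and CCND1, the G1 cyclin D1, fell in KO (-2.11). MYCN rose in WT (1.20, SE 0.32, limma adjusted p = 0.0497), and MYC (1.49) and THBS1 (3.55) rose in KO. MYCN, a growth regulator under LIN28B and let-7, was at 52.4 and 46.2 TPM in WT HEs and 140 and 94.1 in WT HPCs, and at 86.8 and 45.0 in KO HEs and 106 and 86.1 in KO HPCs.

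Against KO hESCs the same list had calls in both directions, beside all-gene shares of 13.9% higher and 16.1% lower in KO HEs and 14.2% and 16.4% in KO HPCs. In KO HEs, 7 were higher, led by CCND1 (3.18), PRDM1 (2.84), STARD13 (2.42) and ARID3A (1.56), and 4 were lower, among them NR6A1 (-2.02), CDC25A (-0.86) and ARID3B (-0.69). In KO HPCs, 6 were higher, led by THBS1 (2.28), PRDM1 (1.95), ARID3A (1.64) and BACH1 (1.34), and 4 were lower, namely IGDCC3 (-1.65), NR6A1 (-1.35), ARID3B (-0.94) and PBX3 (-0.79). Of the 28, 19 held a match to the whole seed in the 3′UTR scanned. CCND1, PRDM1, STARD13, THBS1, MYCN, MYC and FNDC3B were among the 9 that did not.

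Of 6 mRNAs known to be bound by IGF2BP proteins, none was called between KO and WT in either stage. Over all genes 0.0186% were called in HEs and 0.0603% in HPCs. IGF2, the fetal growth factor whose mRNA named the family, was at 0.32 and 0.57 TPM in KO hESCs, 57.2 and 71.1 in WT HEs, 59.3 and 60.9 in KO HEs, 45.1 and 29.1 in WT HPCs, and 87.6 and 65.8 in KO HPCs. It was thus nearly absent where IGF2BP3 was highest. The rise from KO hESCs was 5.41 on the log2 scale in KO HEs and 5.74 in KO HPCs (SE 0.26 each). Between genotypes in HPCs the IGF2 libraries did not overlap, as in 32.6% of all genes, with a log2 fold change of 1.04 (SE 0.26, limma adjusted p = 0.275). H19, the maternally expressed RNA of the same locus, was at 10.8 and 3.47 TPM in KO hESCs, 448 and 558 in WT HEs, 326 and 480 in KO HEs, 179 and 92.5 in WT HPCs, and 197 and 172 in KO HPCs. It was called higher in KO HEs than in KO hESCs (5.77) and lower in WT HPCs than in WT HEs (-1.95, SE 0.45, limma adjusted p = 0.0281), and the KO step of -1.10 did not pass (limma adjusted p = 0.159). CD44 (3.62) and CTNNB1 (0.84), for a hyaluronan receptor and β-catenin, were higher in KO HEs than in KO hESCs. CTNNB1 then fell from HE to HPC by 1.21 in WT and 1.12 in KO. Of the 6, 4 were called higher in KO HEs and 3 in KO HPCs than in KO hESCs, where 13.9% and 14.2% of all genes were. From HE to HPC, 2 of the 6 were called lower in WT and 1 in KO, where 6.59% and 7.24% of all genes were.

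**Figure D4:**
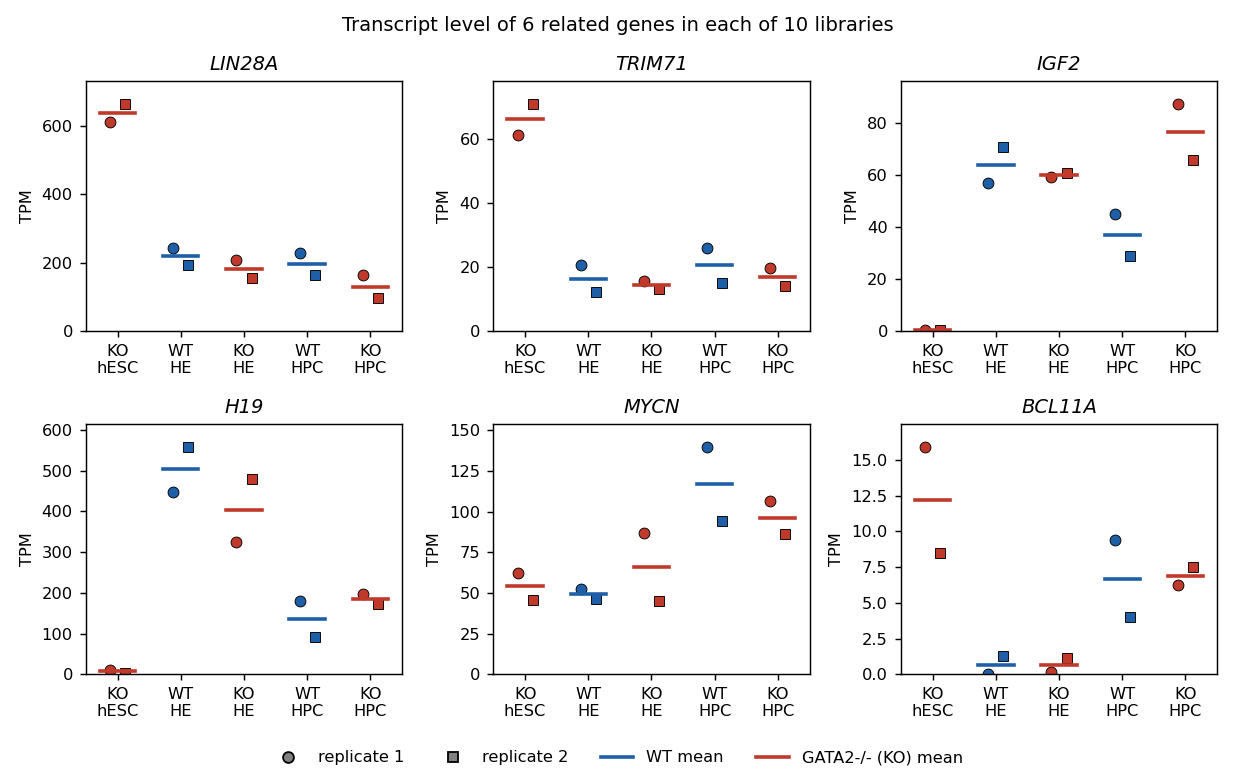
TPM (y axes, linear, from 0) of LIN28A, TRIM71, IGF2, H19, MYCN and BCL11A in the 10 libraries, with circles for replicate 1, squares for replicate 2 and bars for group means. LIN28A and TRIM71 are highest in KO hESCs, where IGF2 is at 0.32 and 0.57 TPM.

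Embryonic, fetal and adult globin genes, the classical readout of LIN28B in red cells, were low in HEs and rose at the HPC stage. The globin repressor BCL11A, listed with them, was already present in KO hESCs. All 8 genes of the list were called higher in HPCs than in HEs in each genotype, where 3.32% of all genes in WT and 5.5% in KO were. None was called between genotypes in HPCs or HEs by limma, where 0.0603% and 0.0186% of all genes were. An unadjusted p under 0.05 was held by 0 and 3 of the 8, and by 8.94% and 4.85% of all genes. In KO against WT HEs their median log2 fold change was -0.70, against -0.01 over all genes. HBE1 was at 15.3 and 12.7 TPM in WT HEs and 3.39 and 3.13 in KO HEs, and HBG2 at 15.2 and 20.3 and 5.50 and 9.23. HBA2 went the other way, at 0 in both WT HE libraries and 10.2 and 0 in KO HEs. The embryonic globin HBE1 reached 1496 and 4448 TPM in WT HPCs and 1598 and 4487 in KO HPCs, and the fetal globin HBG2 1546 and 4176 and 2155 and 4284, while the adult globin HBB was at 11.6 and 9.74 and 4.65 and 9.29. HBG1 and HBG2 are near-identical copies, so their split is uncertain, as is that of HBA1 and HBA2. BCL11A, the repressor of fetal globin, was at 9.38 and 4.03 TPM in WT HPCs and 6.25 and 7.50 in KO HPCs, against 0 to 1.32 in HEs, and at 15.9 and 8.49 in KO hESCs. It was thus called higher in HPCs than in HEs (log2 fold change 2.25 in WT and 2.30 in KO; limma adjusted p = 0.0388 and 0.0294) at a stage where HMGA2 was called lower. Replicate 2 had more globin than replicate 1 in each HPC group.

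Cell cycle genes gave no call in any comparison of KO with WT or of HPC with HE (0 of 10 in each). Over all genes 0.0186% and 0.0603% were called for KO against WT in HEs and HPCs, and 9.91% and 12.7% from HE to HPC in WT and KO. In the same order, 0, 0, 2 and 2 of the 10 had an unadjusted p under 0.05. The all-gene shares were 4.85%, 8.94%, 22.4% and 26.8%. Against KO hESCs, PCNA, MCM5, CCNB1 and MCM2 were lower and TYMS higher in KO HEs. CCNB1, MCM5, BIRC5, PCNA and AURKB were lower and TYMS higher in KO HPCs. Over all genes 16.1% were lower and 13.9% higher in KO HEs, and 16.4% and 14.2% in KO HPCs. HMGA1 was called lower in the same comparisons, and a link with the cell cycle genes was not tested. Of 14 let-7 precursor genes and host transcripts, 10 to 13 were listed at 0 in each library and 4 were tested. LINC00478 (MIR99AHG, host of let-7c) was at 7.88 and 5.05 TPM in WT HEs, 0.13 and 1.62 in KO HEs, at most 1.21 in the 4 HPC libraries and 0 in KO hESCs, and was called lower in WT HPCs than in WT HEs (log2 fold change -2.18, SE 0.50, limma adjusted p = 0.0271). Its difference between KO and WT HEs, -2.09 (SE 0.50), did not pass (limma adjusted p = 0.526). FLJ27365 (MIRLET7BHG, host of let-7a-3 and let-7b) was at 1.09 and 1.00 TPM in KO hESCs and at most 0.24 elsewhere. MIRLET7DHG, a let-7 host outside that list that was chosen after its values were seen, was present in all 10 libraries, at 5.35 and 4.87 TPM in KO hESCs, 1.16 and 2.01 in WT HEs, 3.38 and 1.21 in KO HEs, 2.78 and 5.07 in WT HPCs, and 4.02 and 4.35 in KO HPCs.

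All genes were then grouped by their number of let-7 seed matches. Of 14468 tested genes with a scanned 3′UTR, 12930 held no match to the whole seed, 1350 held 1, 154 held 2 and 34 held 3 or more. In the WT step from HE to HPC, where HMGA2 was at -1.93, the median log2 fold changes of these classes were -0.06, -0.13, -0.10 and -0.08. In the KO step, where HMGA2 was at -2.69, they were 0.00, 0.02, 0.07 and 0.20. In the comparison of KO with WT they were -0.02, -0.03, -0.05 and -0.22 in HEs and 0.04, 0.11, 0.11 and 0.07 in HPCs. LIN28B, HMGA2 and IGF2BP1, the members with 4 matches, differed among themselves in the KO step (0.74, -2.69 and 0.05). These medians are descriptions of the classes, without a test.

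The 6 members did not follow 1 course over the 10 libraries. Pearson r of log2(TPM + 1), over libraries that share stages, line and gates and so are not independent, was highest for HMGA2 with IGF2BP2 (0.83) and lowest for LIN28B with HMGA2 (-0.56). LIN28B with HMGA1 had an r of 0.56, and HMGA1 with IGF2BP2 one of -0.55. Among 11922 genes with a mean of at least 5 TPM, those most like each member were RPAP3, GTPBP4 and XXbac-BPG154L12.4 for LIN28B (r of 0.98, 0.96 and 0.95), NSUN5, EXOSC9 and CHPT1 for HMGA1 (0.96, 0.96 and 0.95), and CECR5, MYL12B and RAB13 for HMGA2 (0.99 each). For IGF2BP1 they were MED6, PBRM1 and PAF1 (0.92, 0.91 and 0.91), for IGF2BP2 KLC1, JAG1 and CSNK1A1 (0.97, 0.96 and 0.96), and for IGF2BP3 RFC1, PRPF8 and MTOR (0.96 each).

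Rows that could share reads with a member were low. The libraries were not stated to keep strand, so reads from a gene and from an antisense transcript over it cannot be told apart. LINC00577, antisense to LIN28B, was at 0.87 and 1.30 TPM in WT HEs and 1.05 and 0.67 in WT HPCs, at 1.27 and 0 in KO hESCs, and was listed at 0 in the 4 KO HE and KO HPC libraries. RPSAP52, antisense to HMGA2, was at 1.98 and 3.50 TPM in WT HEs, 1.29 and 1.58 in KO HEs, 0.71 and 1.47 in KO hESCs, 0.82 and 0 in KO HPCs, and listed at 0 in WT HPCs. Its group means, like those of HMGA2, were highest in the HE groups. The pseudogenes HMGA1P1 to HMGA1P8 reached at most 11.3 TPM, where HMGA1 itself was at 810 or more, and the split of reads between HMGA1 and these copies is uncertain.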

How the data were processed

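RNA-seq was made from TruSeq libraries read single-end on a MiSeq. The authors trimmed reads with Trimmomatic and aligned them with Bowtie to hg19; the submitters' processing notes also name RSEM and mm10, with no role given. The deposited values are TPM per gene, computed by the authors, so read depth is unknown. Members and gene lists were chosen with earlier results of these data known. Groups followed the labels. Genes with at least 1 TPM in at least 2 libraries were tested as log2(TPM + 1) with limma 3.58.1 (R 4.3.3; all 5 groups in 1 fit, trended variance, 5 residual degrees of freedom), with Benjamini-Hochberg adjustment over 21543 genes and a threshold of 0.05. A fold change on this scale understates changes of low genes. Named genes were the 6 members, GATA2, up to 4 called members of each list in each direction, LIN28A, TRIM71, IGF2, H19, BCL11A and MYCN, the 3 genes most like each member, and antisense or pseudogene rows. HBG1, HBB, HBG2, HBA1, HBA2, HBE1 and POU5F1 levels, NR6A1, HIC2 and the cell cycle genes beyond 4 were named after their values were seen. So were the single macrophage, mesenchymal, stromal and blood progenitor markers. Seed matches were read from GENCODE 3′UTRs with Python 3.11.15. The fit was tested on simulated data. Alternatives changed the pseudocount (0.1), filter, normalization, variance trend, block and libraries. 1 member of the list of other let-7 targets was counted but is not reported here by name.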

Additional observations from a re-analysis of the deposited data

How the results depend on the processing

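With 2 libraries a group and no read counts, values of single genes rest on few libraries. Over 486 values of 42 member results, 438 kept their direction and side of the threshold, 18 lost a call, 10 gained one and 20 turned direction, none of them in a called result. Unless said otherwise the cause of a change was not tested.

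For KO against WT in HEs (4 genes) they were 13 without the filter, 12 without the variance trend, 0 with only the 4 libraries compared, and 0 in each fit that left out 1 library. For KO against WT in HPCs (13 genes) they were 6 with a pseudocount of 0.1, 20 without the trend, 0 with only the libraries compared and 0 to 9 without 1 library. From HE to HPC, 2134 genes in WT and 2745 in KO became 0 and 0 with only the libraries compared, a fit with fewer residual degrees of freedom, and 849 to 1505 and 1257 to 1826 without 1 library. Against hESCs, 6462 genes in KO HEs became 4075 to 4431 without 1 library, and 6586 in KO HPCs became 4386 with only the libraries compared and 4180 to 5053 without 1 library. The interaction gave 0 to 5 genes without 1 library.

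Counts of members called from HE to HPC (1 in each genotype) were 2 in WT and 2 in KO with quantile normalization, 2 and 2 after rescaling, 0 and 0 with only the libraries compared, and 1 to 2 in WT without 1 library. Against hESCs they were 1 to 2 in KO HEs (3) and 1 to 2 in KO HPCs (2) without 1 library, and 1 in KO HPCs without the trend and 1 with only the libraries compared. Nothing in the labels says what a replicate number marks; the column headers of replicate 2 of the HE and HPC groups share a suffix of unstated meaning that replicate 1 lacks, and in those groups the replicate block follows the same split. Deviations of same-numbered libraries correlated at 0.12 between WT and KO HEs, 0.06 between WT and KO HPCs and -0.01 to 0.03 elsewhere. With the replicate block, 2 genes were called for KO against WT in HEs and 3 in HPCs, and 3 members from HE to HPC in WT (HMGA2, IGF2BP2 and HMGA1) and 2 in KO (HMGA2 and LIN28B).

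Directions turned for uncalled members. IGF2BP1 in KO against WT HPCs was 0.00997 with quantile normalization, 0.0925 after rescaling and -0.122 to 0.109 without 1 library. Without 1 library, log2 fold changes ran from -0.343 to 0.542 for IGF2BP3 and -0.251 to 0.122 for IGF2BP2 in KO against WT HEs, and from -0.0252 to 0.451 for LIN28B and -0.180 to 0.410 for IGF2BP2 in KO against WT HPCs. From HE to HPC they ran from -0.688 to 0.196 for IGF2BP3 and -0.116 to 0.361 for LIN28B in WT, and from -0.0765 to 0.363 for IGF2BP3 in KO. LIN28B in KO HPCs against hESCs ran from -0.0849 to 0.245, and the interaction from -0.0530 to 0.831 for IGF2BP3 and -0.116 to 0.474 for IGF2BP2.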
